A study of Homo sapiens with 12 samples.

Results

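HK-2 cells are an immortalised epithelial line derived from the proximal tubule of the human kidney. The change with time in HK-2 cells kept with a compound named Ra was measured by setting the 3 arrays of Ra-treated cells at 48 h against the 3 arrays of Ra-treated cells at 12 h, which are 6 of the 12 arrays of the series. The arrays were chosen by their titles (Ra, with 12 h or 48 h, and not control). The other 6 arrays are cells given the vehicle for 12 h (3 arrays) or 48 h (3 arrays), and they serve as the background for a change with time. All cells grew in a defined medium with epidermal growth factor, hydrocortisone, insulin, transferrin and selenite, and were close to confluent when Ra or vehicle was added. The sources used here give neither the identity of Ra nor its dose, and no sample from the start of the exposure was used. The labels call the 3 samples of a group biological replicates of this 1 cell line. A p-value therefore measures the spread between cultures of that line. Values are GCRMA log2 expression values, in which 1 unit is a 2-fold difference, for 10050 genes, each read by the probe set with the highest mean.

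A culture that stays in the same wells for a long time draws on its nutrients and becomes denser. The transcription factor ATF4 is made when amino acids run short or when protein folding in the endoplasmic reticulum is disturbed, and it switches on amino acid transporters, enzymes of amino acid synthesis and the tRNA synthetases. TXNIP, an inhibitor of thioredoxin and of glucose uptake, is transcribed when glucose is plentiful. Genes of DNA replication and mitosis fall when cells stop dividing.

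The labelled cell type was only partly visible on the arrays. All 5 epithelial markers (KRT8, KRT18, KRT19, CDH1 and EPCAM) passed the signal filter of 5 log2 units on at least 3 arrays, with a mean of 11.24 to 11.39 on the Ra 12 h arrays and of 10.995 to 11.28 on the Ra 48 h arrays. Of 17 proximal tubule markers 5 passed (ABCB1, CDH6, DPP4, PAX8 and SLC22A5), and HNF4A, LRP2, CUBN, SLC34A1 and AQP1 were among the 12 that did not. Of the markers of other cell types, 3 of 9 fibroblast genes (COL1A1, DCN and LUM), 1 of 10 endothelial genes and 2 of 6 podocyte genes passed, and 0 of 9 immune and 0 of 9 distal nephron genes did. On the deposited values the replicate arrays of Ra 48 h were the least alike. The median gene's SD between the deposited values of 3 arrays was 0.12 log2 units in Ra 12 h and 0.43 in Ra 48 h, against 0.12 and 0.22 in control cells. Ra 48 h replicate 2 stood apart, with a median gene at 7.95, where the other 11 arrays lay between 8.66 and 8.79. Quantile normalization, which gives all arrays the same distribution of values, brought that SD in Ra 48 h to 0.23. On that scale it was 0.22 in control 48 h, 0.13 in Ra 12 h and 0.12 in control 12 h, so both 48 h groups were more uneven. The 3′ probe set of ACTB lay above its 5′ probe set by 0.94 ± 0.05 log2 units in Ra 12 h and by 0.95 ± 0.17 in Ra 48 h (SD, n = 3); a larger gap goes with more degraded RNA. Ra 48 h replicate 2 had the highest gap of the Ra arrays, 1.13. In control cells the gap was 0.91 ± 0.10 at 12 h and 1.07 ± 0.15 at 48 h (SD, n = 3), with 1.19 and 1.13 on control 48 h replicates 1 and 2, so it was higher at 48 h in the group on which the control changes and the differences from them rest. The same gap for GAPDH lay between -0.11 and 0.03 on the 12 arrays. It was -0.01 on Ra 48 h replicate 2 and -0.03, -0.06 and 0.01 on the control 48 h arrays. The higher gaps were therefore seen for ACTB and not for GAPDH. The part of these array differences in the results was not tested beyond the values given with and without that array.

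**Figure D1:**
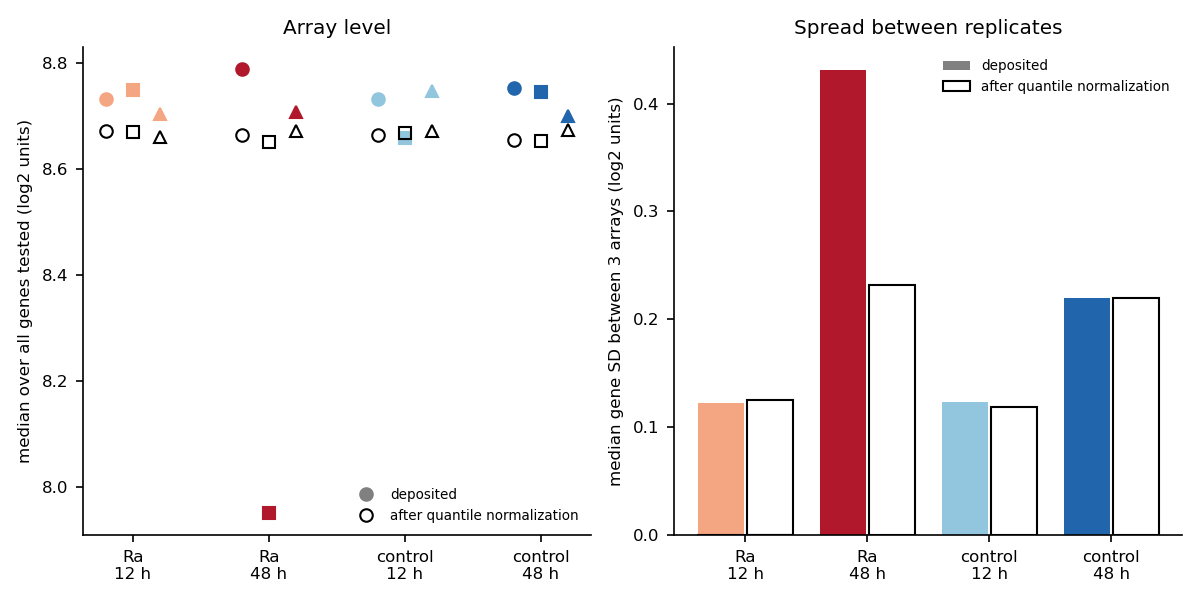
Left, the median over 10050 genes on each array (log2 units; shapes are replicates 1, 2 and 3), as deposited (filled) and after quantile normalization (open); right, the median gene's SD between the 3 arrays of a group (log2 units). Ra 48 h replicate 2 lies at 7.95 as deposited, and the SD of Ra 48 h goes from 0.43 to 0.23 with quantile normalization. The SD of control 48 h is 0.22 on both scales.

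Between 12 h and 48 h with Ra, TXNIP showed the largest fall and STC2, a secreted glycoprotein and a target of ATF4, the largest rise of the genes that passed the test. PPARGC1A, the coactivator that drives mitochondrial biogenesis, the zinc transporter gene SLC39A11, the peptide hormone gene ADM and the kidney transcription factor PAX8 rose as well. GINS4, a subunit of the replicative helicase, and COL1A1, a chain of type I collagen, fell. These calls rest on quantile-normalized values. On the deposited values limma called 0 of 10050 genes at an adjusted p of 0.05 (0% called; lowest adjusted p = 0.385), with 796 genes (7.92%) at an unadjusted p of at most 0.05; the count was 47 with each array centred on its median and 733 with a weight for each array. The median gene was 0.21 log2 units lower at 48 h, and the arrays of the times did not overlap for 17% of genes in the lower and 2.49% in the higher direction. After quantile normalization 106 genes (1.05%) passed in limma, 46 with a rise (0.458%) and 60 with a fall (0.597%), with 1893 genes (18.8%) at an unadjusted p of at most 0.05 and a median difference of 0.00. The arrays did not overlap for 13.7% of genes with 48 h higher and 13% with 48 h lower. Of the 106 genes 51 changed at least 2-fold, 17 upwards and 34 downwards. All 106 had the same sign on the deposited values, where 93 had an unadjusted p of at most 0.05. The median change was 0.90 among the rises and -1.10 among the falls.

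The number of calls moved with single arrays. After quantile normalization it was 2, 34 and 204 without Ra 12 h replicates 1, 2 and 3, and 1, 4 and 30 without Ra 48 h replicates 1, 2 and 3. It was also 1 with no filter on low values, and 0 where the 6 Ra arrays were fitted alone, which leaves 4 residual degrees of freedom. Of the 106 genes, whose arrays did not overlap between the times, 2 stayed called without Ra 12 h replicate 1 (FBLN1 and TP53I3), 1 without Ra 48 h replicate 1 (TRMT2B) and 4 without Ra 48 h replicate 2 (FBLN1, FLVCR1-DT, MTHFD2L and TP53I3). Another 93 probe sets that passed the filter belong to 51 of the called genes, and 85 of them gave the same sign and 8 the opposite one. Levels below are quantile-normalized log2 values, given in the order of replicates 1, 2 and 3, and differences are Ra 48 h minus Ra 12 h with their limma SE (n = 3 per time).

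HPN, which encodes the membrane serine protease hepsin, stood at 5.37, 5.57 and 5.49 in Ra 12 h and at 7.93, 7.52 and 6.19 in Ra 48 h. The times did not overlap, which the choice of the largest rises and falls required, and replicate 3 of 48 h was the nearest to 12 h. HPN rose by 1.74 ± 0.35 log2 units, which is 3.34-fold (limma adjusted p = 0.0337). SLC39A11 went from 5.26, 5.40 and 6.04 to 7.36, 6.97 and 7.15, a rise of 1.59 ± 0.31. TMEM37, a membrane protein gene, rose by 1.58 ± 0.31, from 5.75, 5.90 and 5.96 to 7.78, 7.85 and 6.70. In both the 3 arrays of 48 h lay above all of 12 h. PPARGC1A was even within each time, at 7.29, 7.27 and 7.38 in Ra 12 h and at 8.82, 8.69 and 8.40 in Ra 48 h, a rise of 1.32 ± 0.23 (2.50-fold). FBLN1, which encodes the matrix protein fibulin 1, was the rise with the lowest adjusted p (0.00695 by limma), at 8.37, 8.57 and 8.61 against 9.99, 9.72 and 9.78. It rose by 1.31 ± 0.16, and its other probe sets gave 0.65 and 1.53.

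LRRC61 rose by 1.33 ± 0.26, CYFIP2, a part of the complex that drives branched actin, by 1.29 ± 0.26 and the syntrophin gene SNTB1 by 1.29 ± 0.25. SCFD2 stood at 6.51, 6.57 and 6.72 in Ra 12 h and at 7.68, 8.15 and 7.76 in Ra 48 h, a rise of 1.27 ± 0.24. ADM, which encodes adrenomedullin, rose by 1.25 ± 0.24, from 6.78, 6.54 and 6.45 to 8.12, 7.97 and 7.43. DIP2C rose by 1.20 ± 0.26 and CHID1 by 1.12 ± 0.22. The adjusted p was 0.0456 for DIP2C and 0.0337 for the others (limma). STC2 was near background in 1 group, with 5.34, 3.92 and 4.90 in Ra 12 h against 8.53, 7.19 and 6.10 in Ra 48 h. Its rise of 2.55 ± 0.55 (5.85-fold; limma adjusted p = 0.0445) therefore depends on the background model of GCRMA, and another of its probe sets gave 0.93.

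TXNIP lay at 9.96, 10.09 and 10.94 in Ra 12 h and at 3.23, 5.86 and 8.97 in Ra 48 h. The times did not overlap, but the 48 h arrays covered nearly the whole range from background to the 12 h level. Its mean fell by 4.31 ± 0.83 log2 units (limma adjusted p = 0.0337), with a difference of -4.59 on the deposited values, and its other probe sets gave -5.10 and -5.17. The promoter stretch of TXNIP is shown because its glucose response is known to run through carbohydrate response elements, which are pairs of short motifs of the form CACGNG. It is the 250 bases before 1 of its 2 RefSeq starts (GRCh38.p14, chr1:145996580-145996829, minus strand), 5′ to 3′, with every match to CACGNG on either strand in capitals:
TXNIP: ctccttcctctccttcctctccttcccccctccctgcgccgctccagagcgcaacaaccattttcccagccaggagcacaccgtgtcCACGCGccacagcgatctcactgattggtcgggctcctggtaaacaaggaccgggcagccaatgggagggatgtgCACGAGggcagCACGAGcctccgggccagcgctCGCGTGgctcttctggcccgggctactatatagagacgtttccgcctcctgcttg
The stretch holds 4 matches that do not overlap, and the pair CACGAG and CACGAG begins 88 and 77 bases before the start. The motif is common: 26.7% of 35116 RefSeq promoter stretches of the same length hold at least 1 match, as do 45.7% of the tested genes with a promoter in the table and 51.7% of the genes called with Ra that have one there. A match describes the sequence and does not show binding.

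The next falls were smaller. MTHFD2L, a mitochondrial enzyme of folate metabolism, stood at 8.29, 7.89 and 7.76 in Ra 12 h and at 6.32, 4.47 and 6.13 in Ra 48 h, a fall of 2.33 ± 0.34 log2 units. GINS4 went from 8.13, 8.70 and 9.00 to 6.90, 6.15 and 5.99, a fall of 2.26 ± 0.47. LXN, which encodes the carboxypeptidase inhibitor latexin, fell by 2.18 ± 0.32, from 7.62, 7.38 and 7.63 to 5.32, 4.68 and 6.08. The lowest value of MTHFD2L and of LXN was that of Ra 48 h replicate 2, and that of GINS4 was replicate 3. The adjusted p was 0.0174 for MTHFD2L and LXN and 0.0373 for GINS4 (limma). The long non-coding RNA LINC00973 fell by 1.92 ± 0.33, from 9.91, 9.46 and 9.88 to 6.76, 7.85 and 8.89. COL1A1 fell by 1.32 ± 0.22, from 8.42, 8.73 and 8.45 to 7.62, 6.53 and 7.47, and its other probe set gave -0.57.

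G0S2 and PNPLA3, which both act on lipid droplets, also fell. G0S2, an inhibitor of the lipase that opens lipid droplets, fell by 1.39 ± 0.30, from 9.83, 9.49 and 9.91 to 8.36, 8.06 and 8.64. PNPLA3 fell by 1.39 ± 0.24, from 8.41, 8.48 and 8.05 to 7.09, 6.36 and 7.33. For both genes the arrays of the times did not overlap, as their choice required. The transcription factor gene ATF7 fell by 1.57 ± 0.31, the serpin gene SERPINI1 by 1.49 ± 0.25, the pseudogene ABCA17P by 1.36 ± 0.23 and the antisense RNA gene ZNF667-AS1 by 1.33 ± 0.23. Other probe sets of ATF7 gave -1.28 and 0.12. The lowest value of ATF7 and of SERPINI1, 4.98 and 5.20, was that of Ra 48 h replicate 2. Among genes near background at 48 h, ZBED2 fell by 2.32 ± 0.46, the tRNA methyltransferase gene TRMT2B by 2.28 ± 0.47, GJB2, which encodes connexin 26, by 2.03 ± 0.39 and ADRB1, the beta-1 adrenergic receptor gene, by 1.67 ± 0.32. The adjusted p of these 10 genes was between 0.0337 and 0.041 (limma).

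**Figure D2:**
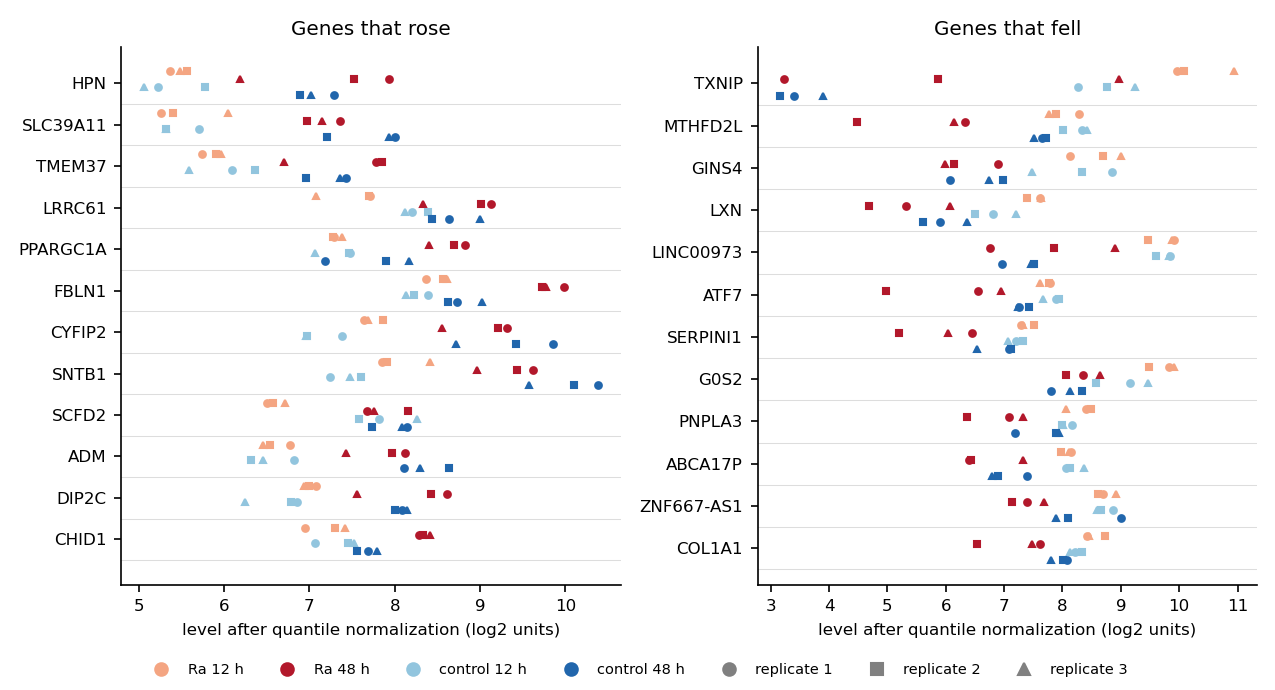
Quantile-normalized log2 levels of the 12 largest called rises (left) and falls (right) with both Ra group means at 5 or more, for every array; colours are the 4 groups and shapes are replicates 1, 2 and 3. The genes were chosen to have the 3 Ra 48 h arrays on 1 side of the 3 Ra 12 h arrays. The 3 Ra 48 h values of TXNIP run from 3.23 to 8.97.

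The 3 arrays of Ra 48 h did not share these changes evenly. Of the 46 rises 31 were largest on replicate 1 and 31 were smallest on replicate 3, and of the 60 falls 33 were largest on replicate 2 and 44 were smallest on replicate 3. The median change of the rises was 1.00 on replicate 1, 0.94 on replicate 2 and 0.74 on replicate 3. The median change of the falls was -1.02, -1.28 and -0.78.

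No gene list held more than 3 members called with Ra. Of 21 p53 targets TP53I3, an oxidoreductase gene, fell and ZMAT3, which encodes an RNA-binding protein, rose. TP53I3 had the lowest adjusted p of all genes (0.00529 by limma), at 8.54, 8.61 and 8.53 in Ra 12 h and 7.25, 7.13 and 7.52 in Ra 48 h, a fall of 1.26 ± 0.14. ZMAT3 rose by 1.01 ± 0.19, from 7.85, 7.90 and 7.60 to 8.93, 8.75 and 8.70. Both genes showed 3 arrays of 48 h close together and apart from 12 h. Of 5 measured proximal tubule markers PAX8 rose by 0.80 ± 0.16 (limma adjusted p = 0.0362), from 10.54, 10.58 and 10.29 to 11.66, 11.15 and 11.01, and 1 of its other probe sets, at -0.48, had the opposite sign. The other 4 markers did not pass: the cadherin gene CDH6 gave 0.79 ± 0.27, ABCB1, the drug efflux pump gene, 0.35 ± 0.12, the peptidase gene DPP4 -0.10 ± 0.27 and the carnitine transporter gene SLC22A5 -0.04 ± 0.24.

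Of 32 genes of the extracellular matrix and TGF-beta response SMAD6, an inhibitory SMAD gene, rose by 1.03 ± 0.22 and COL4A2, a basement membrane collagen gene named after its values were seen, by 0.49 ± 0.09, while COL1A1 fell. COL1A1 is also 1 of the 3 measured fibroblast markers, whose mean was 9.13 to 9.48 in Ra 12 h and 8.64 to 9.24 in Ra 48 h. Of 22 NRF2 targets the exporter gene ABCC3 rose by 1.02 ± 0.20. NQO1, the classical NRF2 target, gave -0.70 ± 0.18 and GCLM, a subunit of the enzyme that starts glutathione synthesis, -0.91 ± 0.26, and neither passed (limma adjusted p = 0.0799 and 0.0893). Of 22 hypoxia genes ADM rose, and VEGFA, the angiogenic growth factor gene, gave 0.92 ± 0.28 (limma adjusted p = 0.11). The median of the 22 was 0.07 after quantile normalization and -0.13 on the deposited values, with 14 higher and 8 lower after quantile normalization. At an unadjusted limma p of at most 0.05, 6 were higher and 3 lower, against 18.8% of all genes. Relative to Ra 12 h, the hypoxia list mean was 0.35, 0.09 and -0.05 on the arrays of Ra 48 h. Of 20 cytosolic heat shock proteins and chaperonins HSP90AA1 fell by 0.54 ± 0.10. Of 37 cytosolic ribosomal proteins RPL3 rose by 0.36 ± 0.07, and 30 of the 37 had higher means. The median of that list was 0.06 after quantile normalization, -0.02 on the deposited values and 0.23 with each array centred on its median, so its sign turns with the scaling. The members called in these lists are 1 to 3 of each, where 1.05% of all genes were called.

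Several lists had lower means without a called member. All 27 proteasome subunit genes were lower at 48 h (median -0.24 log2 units), and 10 members were at an unadjusted limma p of at most 0.05, against 18.8% of all genes. Their list mean, relative to the mean of Ra 12 h, was 0.01, -0.11 and 0.09 in Ra 12 h and -0.29, -0.27 and -0.13 in Ra 48 h, so the arrays were apart by time. The arrays did not overlap for 15 of the 27, against 13% of all genes in that direction. All 11 tubulin genes were lower, with a median of -0.26 and 3 at that unadjusted p. The tubulin mean of Ra 48 h ran from -0.49 on replicate 1 to -0.13 on replicate 3, the latter next to the lowest Ra 12 h array at -0.12. In control cells, which share no array with this comparison, 18 proteasome genes fell (median -0.38) and 10 tubulin genes fell (median -0.85). There 19.1% of all genes were called lower. With Ra the deposited medians were -0.40 for the proteasome and -0.42 for tubulins, where the median gene was at -0.21.

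Interferon-stimulated genes had the lowest median of the lists, -0.63, with 18 of 22 members lower, 0 called by limma, and 1 higher and 10 lower at an unadjusted p of at most 0.05. Of all genes 18.8% were at that unadjusted p. The arrays did not overlap for 9 members with 48 h lower and 1 with 48 h higher, against 13% and 13.7% of all genes. IFIT1, an interferon-induced protein that binds foreign RNA, stood at 9.78, 10.45 and 9.01 in Ra 12 h and 8.29, 7.67 and 8.52 in Ra 48 h, a difference of -1.59 ± 0.54 (limma adjusted p = 0.145). The list mean was alike on the arrays of Ra 48 h, from -0.63 to -0.60, and uneven in Ra 12 h, at 0.05, 0.32 and -0.36. The median of the list was -0.43 without Ra 12 h replicate 2 and -0.87 without Ra 12 h replicate 3. Genes of cholesterol and fatty acid synthesis had a median of -0.46, with 21 of 24 members lower, 0 called and 8 at that unadjusted p, all lower. The arrays did not overlap for 7 of the 24, all with 48 h lower. HMGCS1, which encodes an early enzyme of the pathway, stood at 12.16, 12.14 and 11.03 against 10.76, 10.77 and 11.21, a difference of -0.86 ± 0.44. Here Ra 12 h replicate 3 overlapped with 48 h, and the median of the list was -0.34 without Ra 12 h replicate 2 and -0.65 without replicate 3. In control cells the medians were -0.13 for interferon-stimulated genes and -0.15 for cholesterol synthesis. Relative to Ra 12 h, the interferon list mean was -0.50, -0.56 and -0.94 in control 12 h. In control 48 h it was -0.66, -0.96 and -0.77. The Ra 48 h arrays thus lay within the range of the control arrays, and the Ra 12 h arrays lay above it. The difference between the changes was called for 0 interferon-stimulated genes and 1 gene of cholesterol synthesis, against 10.4% of all genes.

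Lists of metabolism and growth arrest held 1 called gene with Ra. Of all genes, 1.05% were called with Ra and 18.8% were at an unadjusted limma p of at most 0.05. Of 22 genes of growth arrest TXNIP fell, 4 members were higher and 4 lower at an unadjusted p of at most 0.05, and the median was 0.16 after quantile normalization and -0.08 on the deposited values. CDKN1C, a cell cycle inhibitor gene, stood at 8.31, 8.46 and 8.26 in Ra 12 h and at 9.40, 9.06 and 8.95 in Ra 48 h, and CDKN2B, another inhibitor, at 7.40, 6.75 and 6.38 against 5.16, 4.47 and 6.33. Neither passed (limma adjusted p = 0.0658 and 0.17). Of 19 glycolysis genes limma called 0, with 8 at that unadjusted p, 3 higher and 5 lower. ENO2, a neuronal enolase gene, gave 0.96 ± 0.28 and PDK1, which encodes a kinase that inhibits pyruvate dehydrogenase, -0.60 ± 0.15. Of 45 nuclear genes of oxidative phosphorylation limma called 0, with 2 at that unadjusted p and a median of 0.00, while their coactivator PPARGC1A rose. Of 10 genes of metallothioneins and zinc handling limma called 0, with 2 at that unadjusted p. MT1M, a zinc-binding metallothionein gene, gave -0.66 ± 0.26 with Ra and -1.33 in control cells.

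The vehicle cells give the change over the same times without Ra. There limma called 3724 genes (37.1%) after quantile normalization, with 1808 higher (18%) and 1916 lower (19.1%) at 48 h. The deposited values gave 3691 (36.7%). After quantile normalization the count was 2427 when control 48 h replicate 1 was left out and 1508 when it was replicate 2 of that group. Of the 106 genes called with Ra, 59 were called in the same direction in control cells, which is 55.7% of the genes called with Ra and 1.58% of those called in control cells. Of the others 3 were called in the opposite direction (GALNT14, IDH1 and CYP20A1, named after their values were seen) and 44 were not called in control cells. TXNIP fell in control cells by 5.27 ± 0.79, to 3.40, 3.16 and 3.89, and STC2 rose there by 3.10 ± 0.52. Across the 10050 genes the changes with and without Ra had a Pearson correlation of 0.35 and a Spearman correlation of 0.33. The comparisons share no array but share probe sets and normalization, and genes are not independent replicates.

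**Figure D3:**
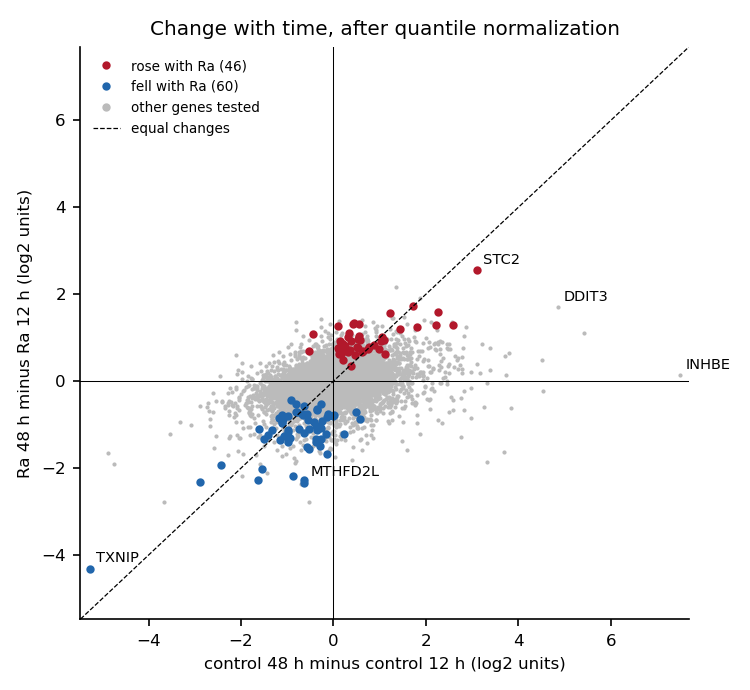
Change from 12 h to 48 h after quantile normalization (log2 units) in control cells (horizontal) and with Ra (vertical) for 10050 genes; red and blue points are the 46 rises and 60 falls called with Ra, and the dashed line marks equal changes. STC2 and TXNIP lie near that line, and INHBE, with 7.49 in control cells and 0.15 with Ra, lies far from it.

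The genes called in control cells, which were chosen by their change there, had smaller median changes with Ra. The 1808 genes called higher in control cells had a median change of 0.78 there and of 0.13 with Ra (quartiles -0.05 and 0.34), and 68.7% had a positive difference with Ra. The 1916 genes called lower had medians of -0.73 and -0.16, and 75.5% had a negative difference with Ra. Without Ra 48 h replicate 2 the medians with Ra were 0.16 and -0.15. The arrays of Ra 48 h differed in this. Relative to the Ra 12 h mean, the genes called higher in control cells had a median of 0.32 on replicate 1, 0.10 on replicate 2 and 0.01 on replicate 3. The genes called lower had medians of -0.29, -0.17 and -0.01. On both sets replicate 1 was the array farthest from Ra 12 h, and replicate 3 had medians at its level.

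The difference between the changes was tested directly. After quantile normalization limma called 1042 genes (10.4%), with 496 in which the Ra change was the higher one (4.94%) and 546 in which it was the lower one (5.43%). On the deposited values it called 7 (0.0697%), all lower with Ra. Of the 546 genes 504 were called in control cells, with a median of 1.01 there and -0.10 with Ra, and of the 496 genes 465 were, with medians of -0.96 and 0.01. The count of 1042 was 14 without Ra 48 h replicate 3, 357 without Ra 48 h replicate 2, 430 without Ra 12 h replicate 1, 636 without control 12 h replicate 2, and 175, 2 and 2219 without control 48 h replicates 1, 2 and 3.

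Targets of ATF4 rose together in control cells and not with Ra. With Ra 1 of 32 members (STC2) rose and 0 fell, with a median of -0.01. At an unadjusted p of at most 0.05, 4 were higher and 2 lower, near the share of 18.8% among all genes. In control cells 29 rose and 1 fell, with a median of 1.65, where 18% of all genes rose and 19.1% fell. The difference between the changes was called for 19 members, all lower with Ra, against 5.43% of all genes in that direction. It was called for 1 without Ra 48 h replicate 3 and for 9 without Ra 48 h replicate 2. Without control 48 h replicate 2 it was called for 0. On the deposited values it was called for 0. The 3 arrays of Ra 48 h disagreed: the list mean, relative to Ra 12 h, was 1.02 on replicate 1, -0.26 on replicate 2 and -0.46 on replicate 3. Of the 32 members 29 were highest on replicate 1.

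INHBE, an inhibin subunit gene, shows the pattern at its widest, with 5.50, 3.89 and 6.33 in Ra 12 h and 9.45, 3.39 and 3.31 in Ra 48 h. In control cells it went from 5.53, 3.30 and 4.33 to 12.35, 11.88 and 11.40, and the changes differed by -7.34 ± 1.70 (limma adjusted p = 0.0241). Its values under 5 lie near background, so the size of that difference depends on the background model. CTH, which makes cysteine, stood at 10.73, 6.75 and 6.32 in Ra 48 h against 8.44, 7.88 and 8.16 in Ra 12 h, and DDIT3, the stress transcription factor also called CHOP, at 11.83, 9.79 and 8.21 against 8.39, 7.92 and 8.39. In each of these genes replicate 1 of Ra 48 h lay above all 3 arrays of Ra 12 h. The difference of the changes was -4.76 ± 0.93 for CTH, -3.14 ± 0.73 for DDIT3, -5.33 ± 1.01 for the folate enzyme gene ALDH1L2 and -4.46 ± 1.19 for the cystine transporter gene SLC7A11, with adjusted p between 0.0136 and 0.0348 (limma). With Ra, the change of INHBE itself was 0.15 ± 1.23 and -1.87 without Ra 48 h replicate 1. It was 1.12 without replicate 2 and 1.19 without replicate 3. That of CTH was -0.23 ± 0.67, and -1.63, 0.35 and 0.58 without replicates 1, 2 and 3 of Ra 48 h.

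**Figure D4:**
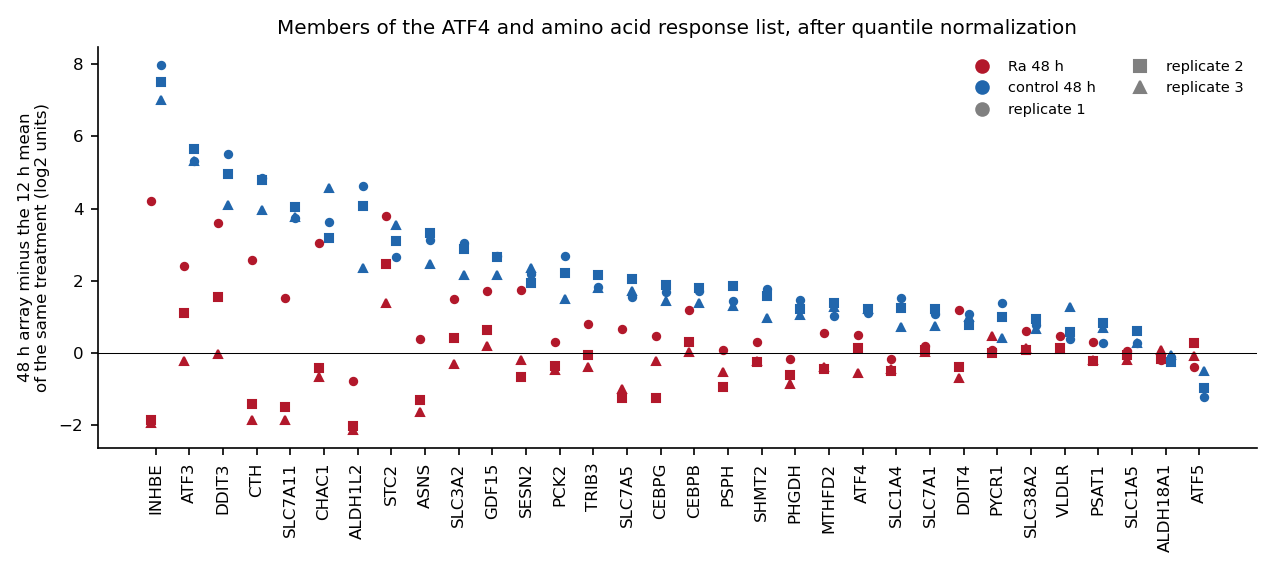
Each 48 h array minus the 12 h mean of the same treatment (log2 units, after quantile normalization) for the 32 measured members of the ATF4 and amino acid response list, ordered by their change in control cells; red is Ra, blue is control, and shapes are replicates 1, 2 and 3. For 29 of the 32 members replicate 1 is the highest of the 3 Ra 48 h arrays.

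The element that ATF4 binds with C/EBP proteins is commonly written TGATGNAA, and promoter stretches that hold it are shown for 2 classical ATF4 targets among the members, which were picked for their motif. ASNS encodes asparagine synthetase and CHAC1 an enzyme that breaks down glutathione. Both stretches are the 250 bases before a RefSeq start (GRCh38.p14), 5′ to 3′ on the gene's strand, with the match on either strand in capitals; that of ASNS is chr7:97872409-97872658, minus strand, and that of CHAC1 is chr15:40953221-40953470, plus strand.
ASNS: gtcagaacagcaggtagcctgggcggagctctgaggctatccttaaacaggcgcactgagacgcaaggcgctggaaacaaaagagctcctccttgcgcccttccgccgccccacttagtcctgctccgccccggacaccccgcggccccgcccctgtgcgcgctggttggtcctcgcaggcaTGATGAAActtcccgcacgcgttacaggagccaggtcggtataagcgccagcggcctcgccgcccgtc
CHAC1: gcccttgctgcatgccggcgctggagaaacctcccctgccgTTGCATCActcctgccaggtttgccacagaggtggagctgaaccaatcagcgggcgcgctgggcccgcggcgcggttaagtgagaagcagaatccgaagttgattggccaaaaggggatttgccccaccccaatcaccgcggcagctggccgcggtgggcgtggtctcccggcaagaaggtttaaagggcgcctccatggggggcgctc
The match begins 68 bases before the start in ASNS and 209 bases before it in CHAC1, where it lies on the other strand, and neither overlaps a match to CACGNG. Of 35116 promoter stretches 3.14% hold the motif, as do 2.2% of the 8361 tested genes with a promoter in the table. Of the 26 measured list members with a promoter there 5 hold it (19.2%), in a list drawn up for ATF4 and the amino acid response. Of the 106 genes called with Ra 87 have a promoter there, and 1 of these holds the motif (1.15%). ASNS stood at 10.48, 8.82 and 8.51 in Ra 48 h and CHAC1 at 7.28, 3.81 and 3.55, so that replicate 1 was the highest in both. The values of CHAC1 on replicates 2 and 3 lie near background. In control cells ASNS changed by 2.97 and CHAC1 by 3.79, and with Ra by -0.85 and 0.66.

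Lists related to the ATF4 response gave like counts. Of 17 tRNA synthetase genes 0 were called with Ra, with 1 at an unadjusted p of at most 0.05, while 11 rose and 1 fell in control cells (medians -0.04 and 0.63). Of 24 genes that fold proteins in the endoplasmic reticulum or respond to unfolded protein 0 were called with Ra, with 0 at that unadjusted p. In control cells 21 rose (medians -0.01 with Ra and 1.48 in control cells). That rise was uneven. Relative to Ra 12 h, the list mean was 2.02, 1.44 and 0.18 in control 48 h and -0.15, -0.37 and -0.31 in control 12 h. The 21 calls became 13 without control 48 h replicate 1 and 11 without replicate 2. Of all genes 18% rose and 19.1% fell in control cells, and 18.8% were at that unadjusted p with Ra. The difference was called for 9 members of each list, all lower with Ra, against 5.43% of all genes in that direction. Without control 48 h replicate 2 or without Ra 48 h replicate 3 it was called for 0 of each, and on the deposited values for 0. WARS1, the tryptophanyl-tRNA synthetase gene, stood at 9.89, 9.45 and 9.48 in Ra 48 h and at 12.32, 11.67 and 10.45 in control 48 h. ERN1, the unfolded protein sensor IRE1, stood at 8.90, 6.13 and 5.63 with Ra and at 10.29, 10.57 and 9.31 in control cells.

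Genes of DNA replication and mitosis changed less with Ra than in control cells. Of 40 replication genes GINS4 fell with Ra, with a median of -0.20 and 9 members lower at an unadjusted p of at most 0.05, while 35 fell in control cells with a median of -1.22. Of 38 genes of G2 and mitosis 0 were called with Ra, with 0 at that unadjusted p and a median of -0.19. In control cells 37 fell with a median of -1.18. Of all genes 19.1% fell in control cells, and 18.8% were at that unadjusted p with Ra. The difference was called for 24 and 22 members, all higher with Ra, against 4.94% of all genes in that direction. It was called for 8 and 7 without Ra 48 h replicate 2. Without Ra 48 h replicate 3, without control 48 h replicate 2 or on the deposited values it was called for 0 and 0. MCM10, a factor of replication initiation, stood at 8.63, 8.72 and 8.53 in Ra 12 h and at 7.22, 7.50 and 8.35 in Ra 48 h, while control cells went from 8.80, 8.86 and 8.77 to 4.63, 5.72 and 6.12. Its changes differed by 2.39 ± 0.40 (limma adjusted p = 0.0117). The replication list mean was -0.63, -0.22 and -0.10 on the arrays of Ra 48 h and -1.84, -1.33 and -0.96 in control 48 h, and 35 of the 40 members were lowest on Ra 48 h replicate 1.

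**Figure D5:**
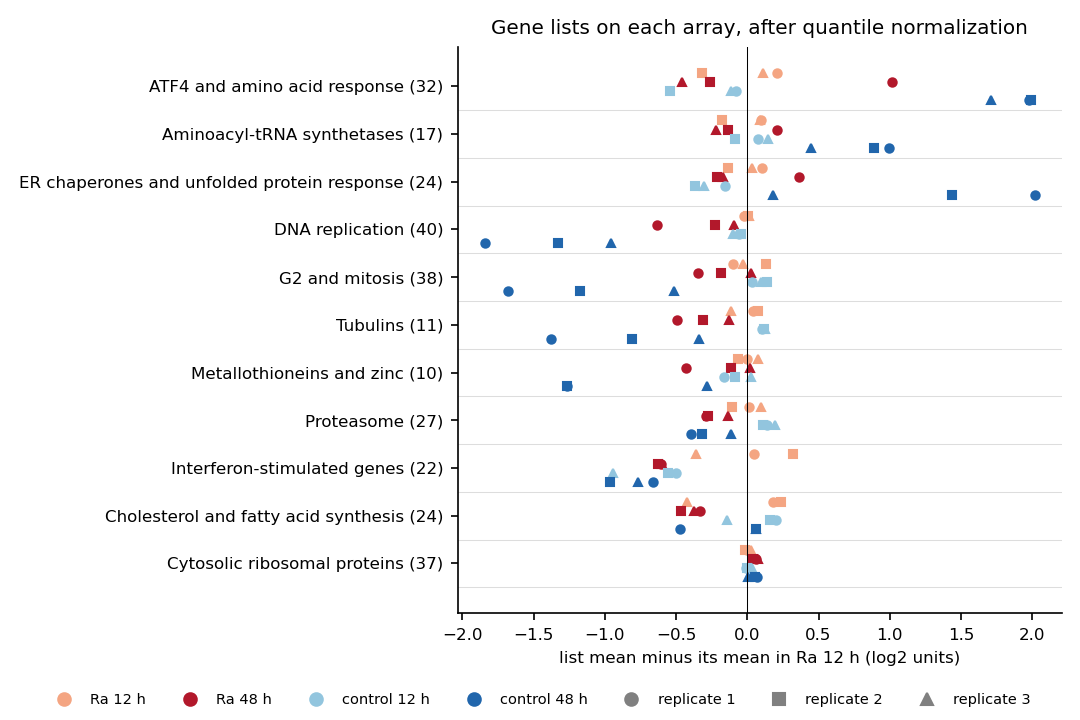
Mean level of 11 gene lists on every array relative to the mean of Ra 12 h (log2 units, after quantile normalization), with the number of measured genes in brackets; colours are groups and shapes are replicates 1, 2 and 3. For the ATF4 list the Ra 48 h arrays lie at 1.02, -0.26 and -0.46 and the control 48 h arrays between 1.71 and 1.99.

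The largest differences among the 7 genes called on the deposited values were those of ANK2, C5AR1, CLIP4, ANKRA2 and UPP1. ANK2, which encodes an ankyrin, stood at 6.80, 6.24 and 6.65 in Ra 12 h and at 6.26, 2.88 and 4.94 in Ra 48 h, while control cells went from 5.80, 4.94 and 5.44 to 8.97, 9.22 and 7.96. With Ra the times touched, at 6.24 and 6.26, and in control cells they were apart. The change passed in control cells and not with Ra (limma adjusted p = 0.000524 and 0.101). UPP1, a uridine phosphorylase gene, differed by 0.10 ± 0.23 with Ra and rose by 2.41 ± 0.22 in control cells. CLIP4 was at background, between 2.61 and 2.72, on all 6 Ra arrays, so it gave no measure of a change with Ra. CLIP4 and C5AR1 passed the signal filter through the 3 arrays of control 48 h alone, which had to make them differ there, and the sizes of their differences depend on the background model. In the other direction 0 genes were called on the deposited values, so the genes that follow were taken from quantile-normalized values. SGK1, a kinase gene induced by glucocorticoids, stood at 12.55, 12.44 and 12.78 in Ra 12 h. In Ra 48 h it stood at 12.53, 12.93 and 13.10, and in control cells it fell by 2.06 ± 0.21. SOX9, a transcription factor of injured tubules, gave -1.21 ± 0.46 with Ra and fell by 3.54 ± 0.44 in control cells. TM4SF4 and CCBE1 gave 0.60 ± 0.38 and 0.11 ± 0.45 with Ra and fell by 2.12 ± 0.36 and 2.46 ± 0.43 in control cells.

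Some genes called with Ra also changed differently from control cells after quantile normalization. The difference was called for 16 of the 106 genes, against 10.4% of all genes. FBLN1 and SCFD2 rose more with Ra, by 0.77 ± 0.22 and 1.16 ± 0.33 log2 units of difference, and SNTB1 rose less, by -1.30 ± 0.35. MTHFD2L, SERPINI1, COL1A1 and ADRB1 fell with Ra and did not pass in control cells, with differences of -1.71 ± 0.47, -1.20 ± 0.35, -1.06 ± 0.31 and -1.52 ± 0.44. SCFD2 was lower in Ra 12 h (6.51 to 6.72) than in control 12 h (7.58 to 8.26), and at 48 h the treatments overlapped. The adjusted p of the difference was between 0.0365 for SNTB1 and 0.0446 for SERPINI1 (limma). On the deposited values it was 0.427 for FBLN1, 0.352 for SCFD2 and 0.141 for SNTB1 (limma), so none of these passed there. For the rest of the 12 largest rises and 12 largest falls the difference did not pass. GAPDH gave -0.06 ± 0.07 with Ra and ACTB 0.06 ± 0.06, while ACTB fell by 0.25 ± 0.05 in control cells.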

How the data were processed

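RNA of HK-2 cells (Ra or vehicle, 12 h or 48 h, 3 arrays in each of 4 groups) was measured on Affymetrix 3′ arrays. The authors deposited log2 expression values made with GCRMA, per the submitters' processing notes; its version is not given in the sources used here. GCRMA models the background from probe sequence, so values near the floor depend on that model. There are no counts, so the number of arrays limits the precision. Of 54675 probe sets 41097 carried 1 symbol, 1801 several and 11777 none. Those with 1 symbol and at least 5 log2 units on at least 3 of 12 arrays were kept (17339), and the one with the highest mean stood for its gene (10050 genes). 0 columns belonged to other samples, and 0 pairs of arrays held identical values.

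limma 3.58.1 in R 4.3.3 was fitted to all 12 arrays with a mean and a variance weight for each group and eBayes with an intensity trend, on the deposited and on quantile-normalized values, with Benjamini-Hochberg adjustment over all genes and a threshold of 0.05. The procedure was tested on simulated data. The comparison, gene lists and tests were chosen with earlier results of these data known. The text names the 12 largest rises and falls of at least 2-fold with separate arrays and both means at 5 or more, up to 4 each way with 1 mean under 5, the 5 largest differences from control cells each way, up to 4 members of a list, markers, GAPDH and ACTB. For the rises and falls the rule asked for calls on both scales, which gave 0 genes. It was therefore applied to quantile-normalized values alone, a choice made after the data were seen. The differences lower with Ra were taken from the calls on the deposited values. Those higher with Ra, where the deposited values gave 0 calls, were taken from quantile-normalized values. Promoter sequences are from RefSeq (GRCh38.p14); motifs were searched on both strands. Figures were drawn with matplotlib 3.10.9.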

Additional observations from a re-analysis of the deposited data

Results flagged for a closer look

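The change from 12 h to 48 h differed between Ra and control cells by a test of the difference itself (limma, 8 residual degrees of freedom) for 1042 genes after quantile normalization and for 7 on the deposited values. Among the genes called with Ra, the difference (Ra change minus control change, log2 units, quantile-normalized) was 0.77 for FBLN1, 1.16 for SCFD2, -1.30 for SNTB1, -1.71 for MTHFD2L, -1.20 for SERPINI1, -1.06 for COL1A1 and -1.52 for ADRB1. For genes that were not called with Ra, the change was lower with Ra by -7.34 for INHBE, -5.33 for ALDH1L2, -5.19 for ANK2, -4.76 for CTH, -4.46 for SLC7A11, -4.04 for C5AR1, -3.37 for CLIP4, -2.51 for ANKRA2 and -2.31 for UPP1. C5AR1 and CLIP4 passed the signal filter through the 3 arrays of control 48 h alone, and CLIP4 was at background on all 6 Ra arrays. INHBE had values near background in both treatments. The sizes of the differences of these genes depend on the background model. The change was higher with Ra by 2.71 for TM4SF4, 2.57 for CCBE1, 2.39 for MCM10, 2.33 for SOX9, 2.32 for SGK1 and 0.31 for ACTB.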

How the results depend on the processing

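With Ra limma called 0 genes on the deposited values, 106 after quantile normalization, 47 with each array centred, 733 with a weight for each array and 4 without Ra 48 h replicate 2 and with quantile normalization of the rest; leaving out single arrays gave 0 to 3. The 106 calls on quantile-normalized values became 162 with one spread for all groups, 208 with a weight for each array, 70 without the intensity trend, 1 with no filter, 262 with a floor of 7, 67 with probe sets averaged for each gene, 0 with the 6 Ra arrays alone and 51 with a 2-fold minimum, and 1 to 204 without single arrays. In control cells the 3691 calls on deposited values became 1955 with one spread, 6127 with a weight for each array and 1151 with a 2-fold minimum, and 1460 to 4379 without single arrays. After quantile normalization the 3724 calls became 6134 with a weight for each array and 1141 with a 2-fold minimum, and 1508 to 4334 without single arrays. For the difference between the changes, the 7 calls on deposited values became 1042 with quantile normalization, 923 with centred arrays, 2 with one spread, 4464 with a weight for each array, 1 without the trend, 0 with no filter, 13 with a floor of 7 and 357 without Ra 48 h replicate 2 and with quantile normalization of the rest, and 0 to 754 without single arrays. Its 1042 calls after quantile normalization became 3404, 669 and 11 with a weight for each array, without the trend and with no filter, 665 without probe sets that may read several transcripts and 574 with a 2-fold minimum, and 2 to 2219 without single arrays. The cause was not tested, except that the floor, the filter and the 6-array setting change the number of genes or arrays fitted. Of the settings tried for single genes, 1082 values kept their call and direction, 210 lost the call, 9 gained it and 22 moved beyond the spread.

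The labels number the replicates 1 to 3 in each group. Same-numbered Ra arrays correlated in their deviations from the group means with r of 0.12, 0.01 and 0.17, and control arrays with 0.01, -0.02 and 0.07, so the numbers were not taken as pairs. With a replicate block the calls with Ra were 240 after quantile normalization and 0 on the deposited values, and the difference between the changes was called for 1383 and 88 genes.

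With 3 arrays in each group and uneven groups at 48 h, single calls depend on the scale and on single arrays. Values under 5 log2 units lie near background, where the size of a change is not well measured.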
